A study of Rattus norvegicus with 13 samples.

Results

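Fat of 13 adult female rats was measured for 7 microRNAs (miRNAs): rno-miR-200a, rno-miR-200b, rno-miR-429 and rno-miR-200c of the miR-200 family, rno-miR-203, rno-miR-205, and rno-miR-3545-3p, which is made from the strand opposite miR-203. They were taken by name (the species prefix rno is left off from here on), and are 7 of the 677 rat miRNAs on the array. Of these, 3 were among the 176 miRNAs detected on enough arrays to be tested between groups. The animals were Sprague Dawley daughters of fathers that differed in diet. In the HFD group (6 arrays) the fathers ate pellets with 43% fat, and in the Control group (7 arrays) they ate chow with 9% fat. In both groups mating with chow-fed females took place when the fathers were 15 weeks old, the daughters ate chow, and their fat was collected at 14 weeks. Each sample was hybridised to a 1-colour Agilent array, on which a miRNA is read as the brightness of its probes. The labels name no fat depot, father or litter, so the p-values measure the spread between these animals, some of which may be sisters.

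The miR-200 family is a mark of epithelial cells, where it lowers the ZEB transcription factors and so keeps E-cadherin and other cell contacts in place. miR-203 is abundant in skin and other layered epithelia, where it helps basal cells stop dividing by lowering p63, and miR-205 is made in the basal cells of such epithelia. Adipocytes and their precursors are mesenchymal cells, which typically have little of the miR-200 family.

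The genes fall into 4 places. Mir200b, Mir200a and Mir429 neighbour each other on the minus strand of chromosome 5, and Mir200c neighbours Mir141 on the minus strand of chromosome 4. Mir203 lies on the plus strand of chromosome 6, wholly within Mir3545 on the minus strand, and Mir205 lies on the minus strand of chromosome 13 (RefSeq, GRCr8). RefSeq mature sequences matched 4 of the 7 miRNAs by name. They are shown so that miRNAs of neighbouring or overlapping genes can be compared by sequence. They are written 5′ to 3′ with the seed (bases 2 to 8), the stretch that pairs with target messages, in capitals. miR-141 is added as the neighbour of miR-200c. No seed is shared among these 5.
miR-200c: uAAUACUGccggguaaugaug
miR-141: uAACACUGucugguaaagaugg
miR-203: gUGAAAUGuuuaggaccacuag
miR-3545-3p: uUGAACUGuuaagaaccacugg
miR-205: uCCUUCAUuccaccggagucugu

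In GRCr8, miR-200c lies at chr4:159209969-159209989, miR-141 at chr4:159209540-159209561 and miR-205 at chr13:107564588-107564610, all on the minus strand. miR-203 lies at chr6:137020756-137020777 on the plus strand, and miR-3545-3p at chr6:137020716-137020737 on the minus strand. Counted from 1 at the 5′ end, miR-200c and miR-141 match at 17 of 21 bases and differ by U4C, C9U, G11U and U17A, of which U4C falls in the seed.

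RefSeq names miR-203 rno-miR-203a-3p and miR-3545-3p rno-miR-203b-3p. They match at 17 of 22 bases and differ by G1U, A6C, U11A, G14A and A21G, and A6C falls in the seed. The Mir203 hairpin (chr6:137020705-137020801, plus strand) shows how both come from 1 place. Its capitals mark the mature arms, first miR-203* and then miR-203.
Mir203: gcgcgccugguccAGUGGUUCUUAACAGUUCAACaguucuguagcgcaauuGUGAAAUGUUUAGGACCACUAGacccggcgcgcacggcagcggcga
Read on the opposite strand, the same stretch gives Mir3545. miR-3545-3p is therefore complementary to miR-203* over 20 genome bases, and miR-203 to miR-3545-5p over 20.

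A miRNA was counted as detected on an array when at least 1 of its probes stood well above background in 0.5 or more of its spots. By this rule miR-203, miR-3545-3p and miR-205 were detected on all 13 arrays, miR-200a on 5, miR-200b on 4, and miR-429 and miR-200c on 0. The arrays with miR-200a were HFD 619 and 663 and Control 658, 662 and 664. Those with miR-200b were HFD 663 and Control 658, 662 and 664. The scanner software's own detection flag added HFD 619 and Control 627 for miR-200b, Control 622 and 627 for miR-200a, and the 4 arrays HFD 663 and Control 658, 662 and 664 for miR-429. It added no array for miR-200c.

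Detection did not separate the diets. miR-200a was detected on 2 of 6 HFD arrays and 3 of 7 Control arrays (two-sided Fisher's exact test, p = 1, adjusted p = 1). miR-200b was detected on 1 of 6 HFD arrays and 3 of 7 Control arrays (Fisher's exact test, p = 0.559, adjusted p = 0.992). Over the 62 miRNAs detected on some arrays only, 0 passed at an adjusted p under 0.05 (0%) and 1 at an unadjusted p under 0.05 (1.61%). In bulk tissue, fewer cells that make a miRNA and less of it per cell cannot be told apart.

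The brightness of the miR-200 cluster probes was graded rather than on or off. Probes of miRNAs detected on no array set the background, with medians of -4.20 to -1.73 intensity units per array after background subtraction and SDs of 4.71 to 6.60. The brighter miR-200a probe had a lowest, median and highest intensity of 7.89, 16.8 and 59.5 on the HFD arrays, against 6.13, 34.5 and 92.8 on the Control arrays. The groups overlapped throughout, and the highest arrays were Control 664 at 92.8, Control 662 at 72.8, HFD 663 at 59.5, Control 658 at 54.5 and HFD 619 at 43.9.

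The brighter miR-200b probe had 5.04, 12.3 and 42.9 on the HFD arrays, against 3.78, 28.1 and 73.7 on the Control arrays (lowest, median and highest). That of miR-429 had 2.55, 7.69 and 25.0 on the HFD arrays, against -0.139, 14.7 and 38.2 on the Control arrays. For both the 4 highest arrays were Control 664, Control 662, Control 658 and HFD 663, and the groups overlapped. The total signal that the scanner software gave miR-200a on its 5 arrays, with the software's own error, was 27.4 ± 6.02 on HFD 619, 56.5 ± 6.69 on HFD 663, 54.1 ± 7.53 on Control 658, 73.3 ± 9.69 on Control 662 and 89.7 ± 10.2 on Control 664.

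**Figure D1:**
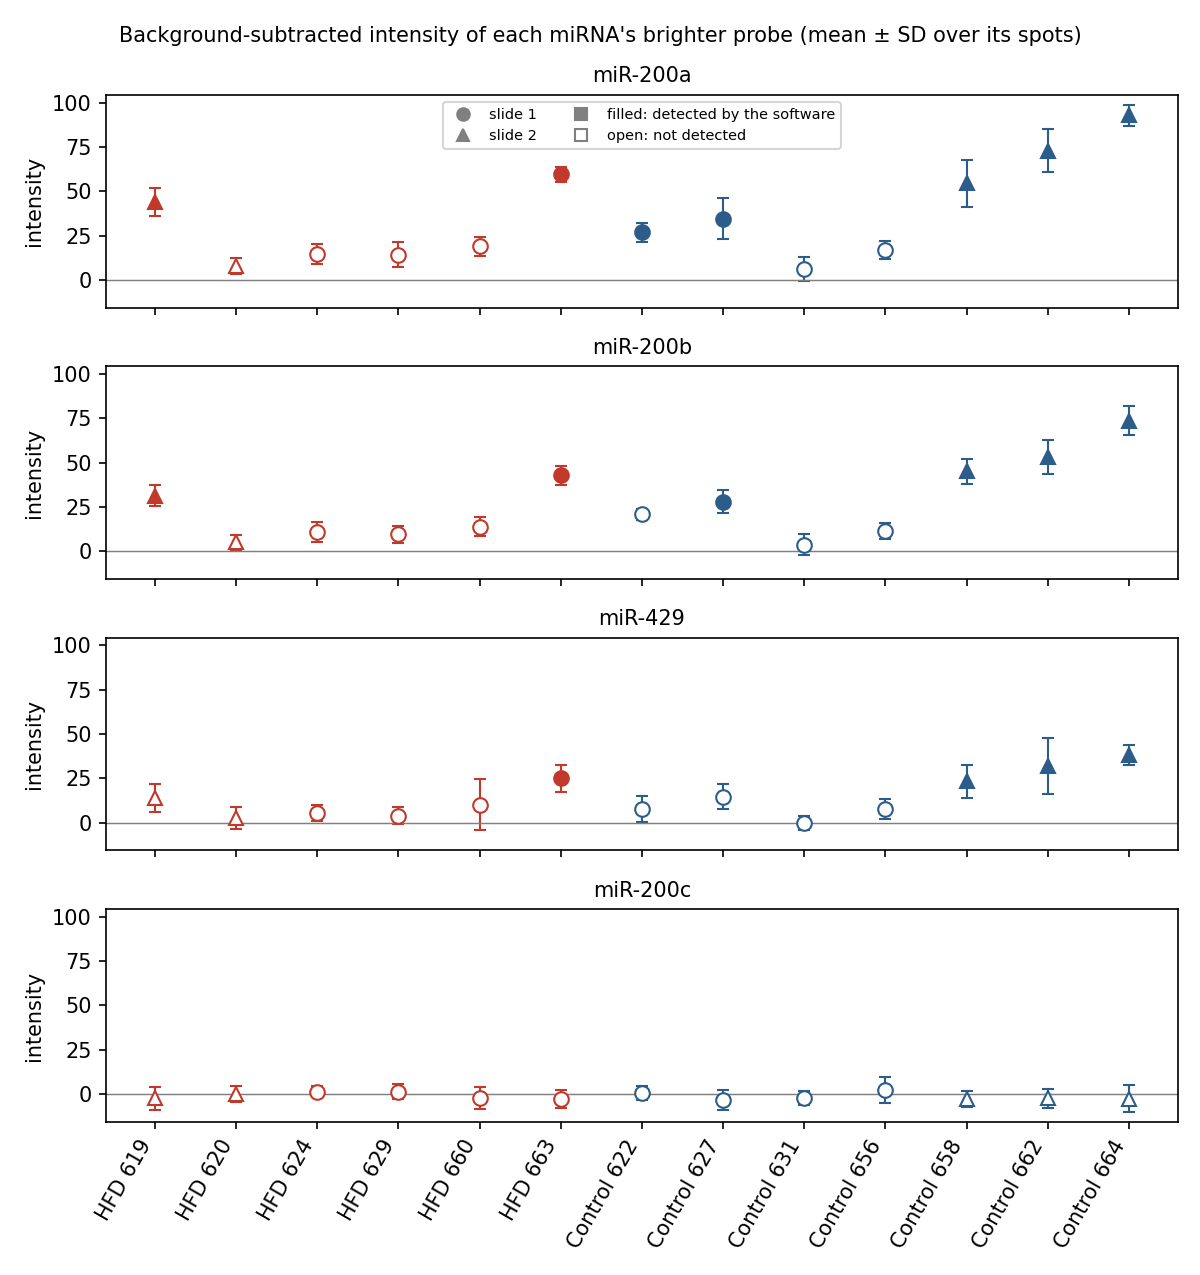
Intensity of the brighter probe of miR-200a, miR-200b, miR-429 and miR-200c (y axis, background-subtracted, linear scale) on each array (x axis, 6 HFD arrays and then 7 Control arrays). Points are means over a probe's spots with their SD, circles are slide 1 and triangles slide 2, and filled points were detected by the scanner software. miR-200a, miR-200b and miR-429 peak on Control 664, while miR-200c stays between -3.33 and 2.18 on all arrays.

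miR-200c, encoded apart from the cluster, lay between -2.97 and 1.41 on the HFD arrays and between -3.33 and 2.18 on the Control arrays, within the range of undetected probes. Its neighbour miR-141 was detected on no array and reached at most 7.75. The family was therefore seen through the chromosome 5 cluster and not, at this sensitivity, through the chromosome 4 pair. A low probe reading does not show that a miRNA is absent.

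The cluster members varied together from array to array. Because most of their values lie near background, this was computed on scaled signals with no floor and no log, over all 13 arrays and all 21 pairs of the 7 miRNAs. Pearson's r was 0.99 for miR-200a with miR-200b, 0.98 for miR-200a with miR-429 and 0.98 for miR-200b with miR-429. Spearman's rho was 0.98, 0.96 and 0.96 in that order. Each of these had a permutation p of 1e-05, the smallest the 100000 permutations can give, and an adjusted p of 7e-05 over the 21 pairs. Binding of any cluster member to the probes of the others was not tested, and their mature sequences were not among those matched.

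The relation held with arrays left out and within slide 1. Without the 2 arrays farthest from the median the 3 values of r were 0.99, 0.95 and 0.95, and on the 8 arrays of slide 1 they were 0.99, 0.93 and 0.93. Within HFD it ran from 0.972 to 0.996, and within Control from 0.982 to 0.990. With miR-200c, r was 0.086 for miR-200a, 0.034 for miR-200b and 0.058 for miR-429 (permutation p = 0.784, 0.908 and 0.849). miR-200c had no signal to covary: its own 2 probes had an r of -0.16, against 0.98 for miR-200a, 0.97 for miR-200b and 0.94 for miR-429.

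Among all 676 other miRNAs on the array, the nearest to miR-200a by rho were miR-200b and miR-429, and likewise for each of the other cluster members. The next was miR-542-3p, with rho 0.85 to miR-200a, 0.87 to miR-200b and 0.90 to miR-429. It is a miRNA of an X-linked cluster, was detected on all 13 arrays, and is named here after its values were seen. The rows share each array's scaling, and these values are descriptions.

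Arrays with miR-200a tended to be of slide 2 and rich in the muscle miRNA miR-133b. Each slide is a glass carrying up to 8 arrays. miR-200a was detected on 4 of the 5 arrays of slide 2 and on 1 of the 8 of slide 1. It was detected on 4 of the 5 arrays on which the muscle miRNA miR-133b had a log2 level of -1.82 to 2.61 (HFD 619 and 629, Control 658, 662 and 664), and on 1 of the 8 others, where miR-133b lay between -5.37 and -4.33. The match was not complete, since HFD 629 had the highest miR-133b with no miR-200a, and HFD 663 had miR-200a with a miR-133b of -4.69. Across all 13 arrays rho between miR-200a and miR-133b was 0.35, rank 143 of 676. HFD 619 and Control 658, 662 and 664 are the 4 arrays in both counts, so slide and miR-133b largely coincide here. The part of slide and of muscle in the miR-200 signal was not tested.

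**Figure D2:**
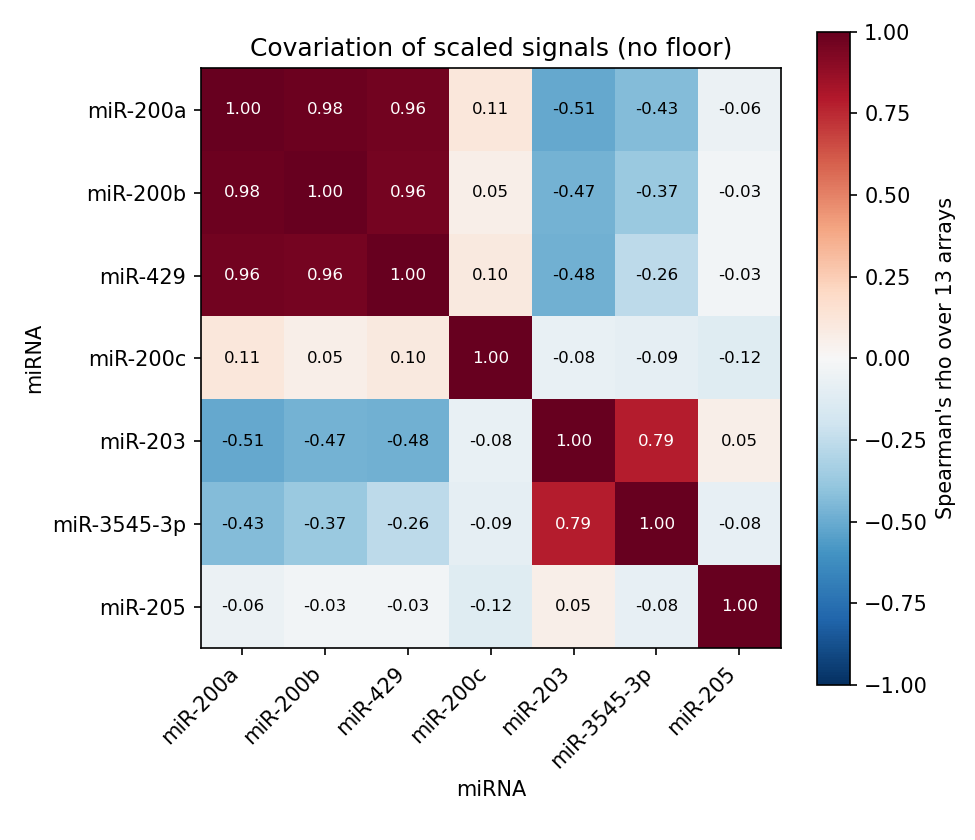
Spearman's rho between the scaled signals of the 7 miRNAs (both axes) over 13 arrays, from -1 (blue) to 1 (red). miR-200a, miR-200b and miR-429 form a block at 0.96 to 0.98, and miR-203 and miR-3545-3p a pair at 0.79.

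miR-203 had a log2 level of -2.39, -2.01 and -1.78 on the HFD arrays (lowest, median and highest), against -2.45, -2.22 and -1.96 on the Control arrays. A log2 level is relative to the 75th percentile of an array's bright probes, and the floor is -5.67. The groups overlapped: HFD 624 and 619 were the highest of all 13 arrays, at -1.78 and -1.80, while HFD 629 at -2.39 lay among the lowest. The mean was -2.04 ± 0.24 (SD, n = 6) in HFD and -2.20 ± 0.19 (SD, n = 7) in Control. The difference was 0.17 ± 0.12 on the log2 scale (SE), or 1.12-fold with a 95% interval of 0.944 to 1.33, and it did not pass (limma, adjusted p = 0.965).

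The higher miR-203 of HFD arrays was seen on slide 2. There the HFD arrays had -1.80 and -1.998, against -2.40, -2.45 and -2.28 on the Control arrays, with no overlap and a difference of 0.48 that did not pass (limma, adjusted p = 0.171). With so few arrays such a separation was common: 62 of 176 tested miRNAs did not overlap on slide 2 (35.2%), and 40 had both HFD arrays above all Control arrays (22.7%). On slide 1 the HFD arrays had -1.78, -2.39, -2.02 and -2.25, against -2.15, -1.96, -1.96 and -2.22 on the Control arrays, which overlapped, and the difference was -0.034. On that slide 9 of 176 did not overlap (5.11%). The difference between the slides did not pass (limma interaction, unadjusted p = 0.0270, adjusted p = 0.226). Of all 176 miRNAs 1 passed this test after adjustment, and 34 had an unadjusted p under 0.05 (19.3%), so differences that varied with the slide were not particular to miR-203.

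miR-3545-3p had a log2 level of -5.00, -4.68 and -4.35 on the HFD arrays, against -5.03, -4.94 and -4.76 on the Control arrays (lowest, median and highest). HFD 624, 620 and 619 were the 3 highest of all arrays at -4.35, -4.58 and -4.63, but HFD 629 and 663 at -5.00 and -4.94 lay within the Control range. The mean was -4.71 ± 0.24 (SD, n = 6) in HFD and -4.91 ± 0.097 (SD, n = 7) in Control. The difference of 0.20 ± 0.096 (SE), or 1.15-fold with a 95% interval of 0.996 to 1.33, had the third lowest p of 176 and did not pass (limma, adjusted p = 0.965).

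HFD 624 had a large part in the miR-3545-3p difference, which was 0.13 without it. Within slides 1 and 2 it was 0.11 and 0.36, and the difference between slides was not called (limma interaction, adjusted p = 0.514). The levels lie near the floor, where the dimmer of the 2 probes is partly cut off. With normexp background correction the difference was 0.077, and with the deposited value table it was 0.35.

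miR-205 had a log2 level of -5.49, -5.10 and -4.52 on the HFD arrays, against -5.44, -4.84 and -4.12 on the Control arrays (lowest, median and highest). Control 622 was the highest of all arrays at -4.12 and HFD 624 the lowest at -5.49, and the groups overlapped over nearly their whole range. The mean was -5.03 ± 0.38 (SD, n = 6) in HFD and -4.84 ± 0.43 (SD, n = 7) in Control. The difference was -0.19 ± 0.21 (SE), or 0.874-fold with a 95% interval of 0.636 to 1.20, and it did not pass (limma, adjusted p = 0.965). Without Control 622 it was -0.075, without HFD 624 it was -0.10, and within slides 1 and 2 it was -0.37 and 0.083. The lowest miR-205 levels lie near the floor of -5.67.

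**Figure D3:**
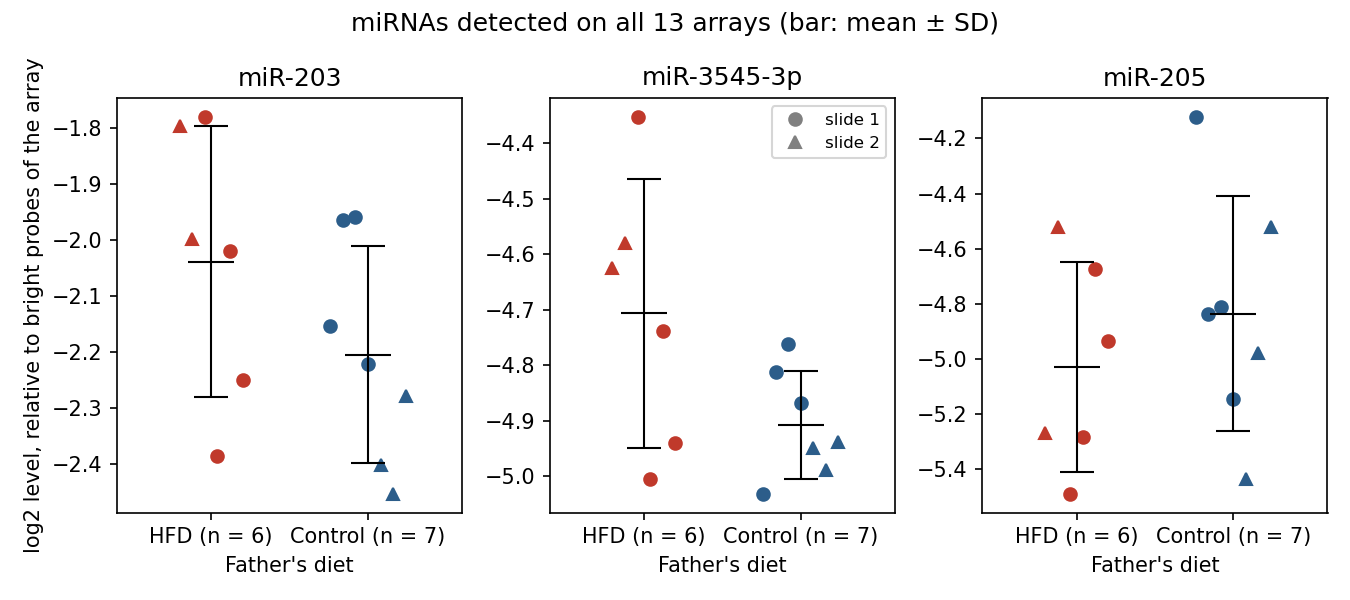
Log2 level (y axis, relative to the bright probes of the array) of miR-203, miR-3545-3p and miR-205 on each array, by the father's diet (x axis, HFD left, Control right). Black bars are means with SD (n = 6 and 7), circles slide 1 and triangles slide 2. The groups overlap for all 3, and on slide 2 the 2 HFD arrays lie above the 3 Control arrays for miR-203 and miR-3545-3p, as for 22.7% of all tested miRNAs.

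Of the 3 tested miRNAs, 2 were higher and 1 was lower in HFD, with a median difference of 0.17. Over all 176 tested, 91 were higher and 85 lower, with a median of 0.0028. None of the 3 passed at an adjusted p under 0.05, where 0 of 176 did (0%), and none at an unadjusted p under 0.05, where 2 of 176 did (1.14%). The groups overlapped for all 3, as for all 176 (0% without overlap). The lowest p on either side belonged to miR-214, at -0.37, and miR-193*, at 0.11. miR-200a and miR-200b, fitted without the detection filter over all 677 miRNAs, differed by -0.15 ± 0.14 and -0.12 ± 0.098 (SE, adjusted p = 0.450 for both in limma). In that fit miR-200c, at the floor on every array, had the same adjusted p, so this value cannot decide whether miR-200a or miR-200b differed. miR-200a and miR-200b sat at the floor on 4 and 5 HFD arrays and on 3 and 4 Control arrays, and both differences depend on where the floor is set. miR-429 and miR-200c did not meet the detection rule on any array of either group, although the scanner software flagged miR-429 on 4 arrays, and no fold is given for either.

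**Figure D4:**
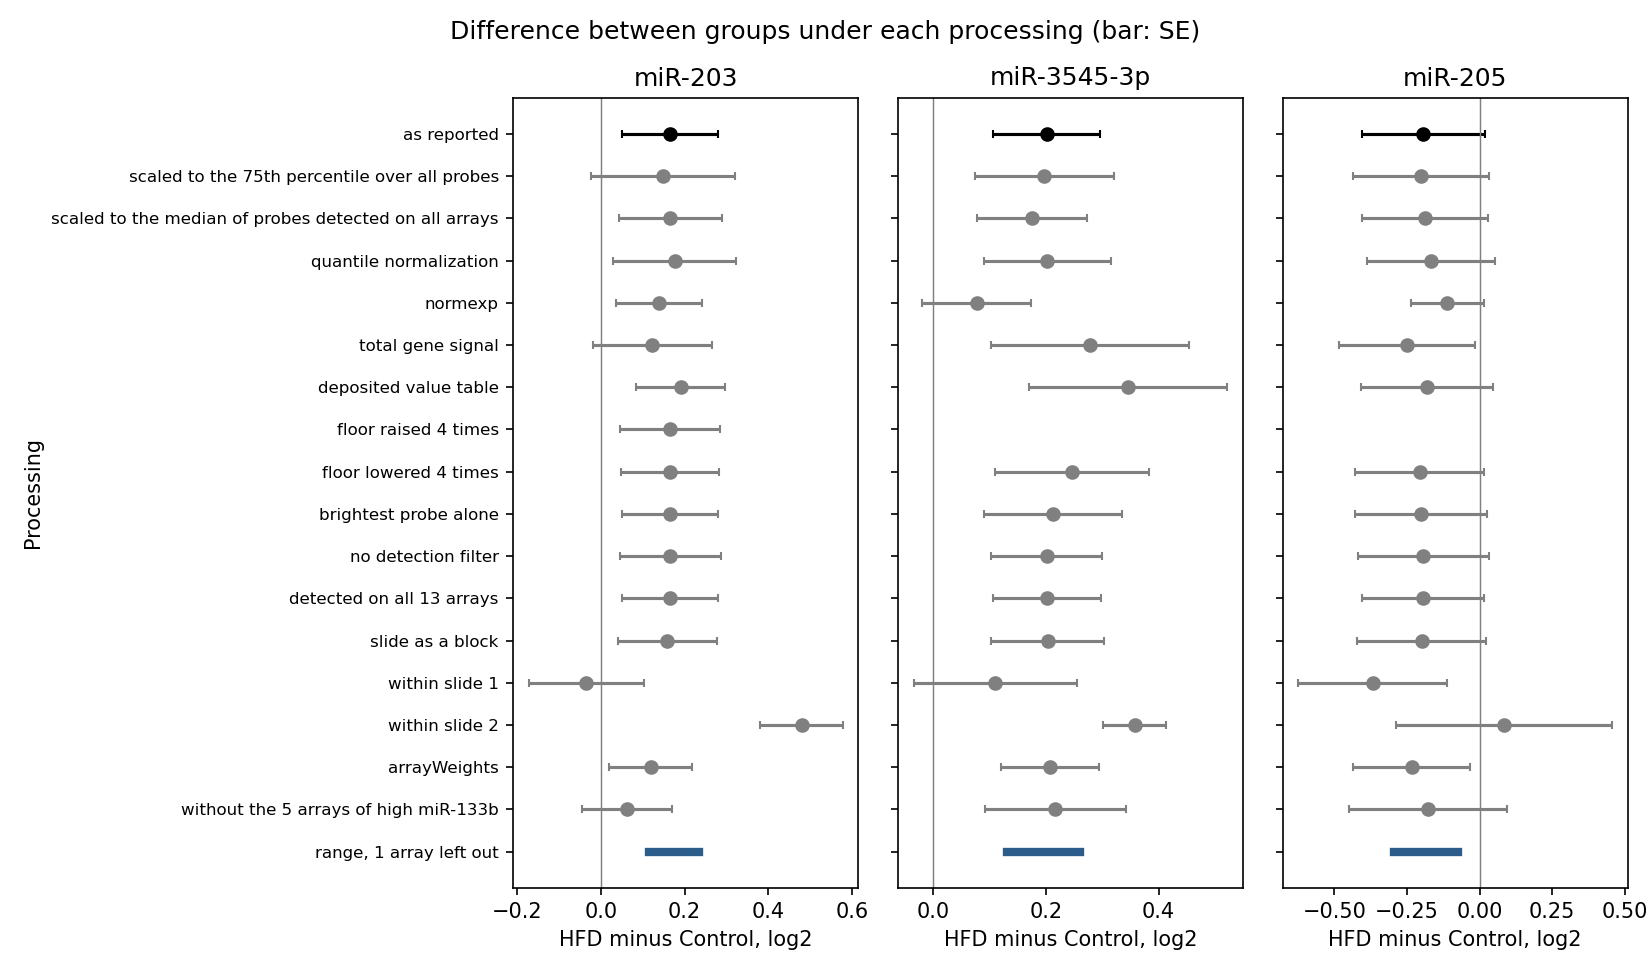
HFD minus Control log2 difference (x axis) of miR-203, miR-3545-3p and miR-205 under each processing (y axis), with its SE as a bar; the blue bar is the range with 1 array left out. miR-203 turns to -0.034 within slide 1 and miR-205 to 0.083 within slide 2, while miR-3545-3p stays above 0, from 0.077 to 0.36.

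miR-203 and miR-3545-3p, from opposite strands of 1 place, varied together. Pearson's r between their log2 levels over 13 arrays was 0.85 (permutation p = 0.00012, adjusted p = 0.00036 over 3 pairs), and Spearman's rho was 0.80 (permutation p = 0.00148, adjusted p = 0.00444). It was r = 0.77 without the 2 arrays farthest from the median, r = 0.86 with rho = 0.79 on the 8 arrays of slide 1, r = 0.92 within HFD and r = 0.73 within Control. Both levels share each array's scaling, which the permutation p does not account for. Whether the shared place plays a part was not tested. The mature forms differ at 5 of 22 bases, as printed above, and binding of either to the probes of the other was not tested. No relation of miR-205 to either was detected: r was -0.0059 and rho 0.027 with miR-203 (permutation p = 0.985 and 0.936), and r was -0.28 and rho -0.088 with miR-3545-3p (permutation p = 0.352 and 0.782). Without the 2 arrays farthest from the median of miR-203, miR-203 and miR-205 had r = 0.52 and rho = 0.53 (permutation p = 0.0986 for rho). The value near 0 thus changed with those arrays left out, but no relation passed. Without the 2 arrays farthest from the median of miR-3545-3p, its r with miR-205 was -0.19.

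**Figure D5:**
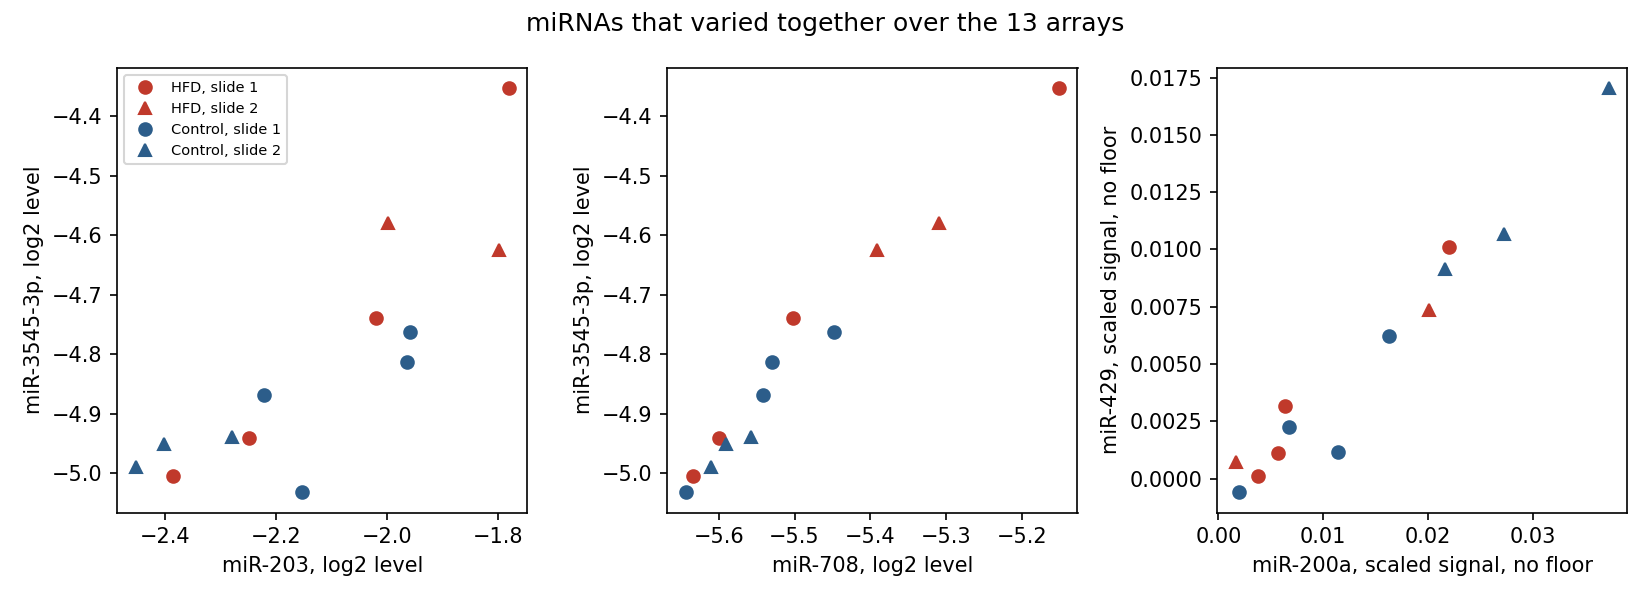
Each point is 1 array (red HFD, blue Control, circles slide 1, triangles slide 2). miR-3545-3p is set against miR-203 and against miR-708 (log2 levels), and miR-429 against miR-200a (scaled signal with no floor); all 3 rise together, with rho 0.80, 0.99 and 0.96.

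The miRNAs most like each of the 3 were found by Spearman's rho over the 13 arrays among the 155 others detected on at least 10, and these values are descriptions. Nearest to miR-203 were miR-497 at 0.90, miR-34a at 0.88, miR-103 at 0.87, miR-195 at 0.85 and miR-708 at 0.80. miR-3545-3p was tied with miR-708 at 0.80. By Pearson's r miR-3545-3p stood above these 5, at 0.85 against 0.80 to 0.84. miR-497 and miR-195 share a cluster and a seed family. Farthest were miR-23b at -0.76 and miR-128 at -0.77.

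Nearest to miR-3545-3p were miR-708 at 0.99, miR-365 at 0.90, miR-196a at 0.84, miR-196c at 0.82 and miR-181a at 0.82, with miR-203 in place 6. By rho, miR-365, a miRNA of fat cells, and the Hox-cluster miRNAs miR-196a and miR-196c thus stood nearer to it than miR-203. By Pearson's r only miR-365 of these did, at 0.96, against 0.85 for miR-203, 0.60 for miR-196c and 0.51 for miR-196a. miR-708 was detected on 11 arrays and lay between -5.64 and -5.15, close to the floor, with 1 of its 2 probes at the floor on every array. Farthest from miR-3545-3p were miR-27b at -0.77 and miR-23b at -0.80.

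Nearest to miR-205 were miR-532-3p at 0.71, miR-342-3p at 0.70, miR-150 at 0.69, miR-223 at 0.67 and miR-500 at 0.66. Of the 5 miRNAs of the white blood cell list that were on the array, miR-342-3p, miR-150 and miR-223 are among these nearest 5, miR-142-3p stood in place 6 at 0.57 and miR-142-5p in place 38 at 0.28. miR-101b at -0.69 and miR-193 at -0.74 were farthest. miR-203 stood in place 76 and miR-3545-3p in place 85 of 155.

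Other epithelial miRNAs gave little signal in this fat. Of 15 companions, among them the opposite strands of the 7, miR-141, miR-31, miR-375 and the miR-183, miR-96 and miR-182 cluster, 13 were on the array and 0 were detected. Most miRNAs of the array were likewise undetected: 206 of all 677 were detected on any array. The scanner software flagged only miR-96, on HFD 629 at 32.0 ± 7.02 and HFD 663 at 26.1 ± 5.55. The 2 partner strands at the miR-203 locus, miR-203* and miR-3545-5p, reached at most 6.48 and 3.87 intensity units on any array, within the background. The 2 strands that were measured there are thus the 3p arms of both precursors.

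Over the epithelial list of 7 (miR-200a, miR-200b, miR-200c, miR-429, miR-141, miR-203 and miR-205), 4 were detected on at least 1 array and miR-200c, miR-429 and miR-141 on none. The summed level ran from 0.228 to 0.362 on the HFD arrays and from 0.261 to 0.342 on the Control arrays, on a linear scale relative to the bright probes. Most of this sum was miR-203, which alone had 0.194 to 0.295 on the HFD arrays and 0.185 to 0.260 on the Control arrays. All 6 listed miRNAs of fat cells and their precursors were detected, with sums of 7.03 to 7.87 in HFD and 6.39 to 17.8 in Control. Their detection does not test the tissue label. Muscle miRNAs varied most, with sums of 0.0992 to 14.1 in HFD and 0.109 to 12.0 in Control. The 7 lists of other cell types and the number of detected miRNAs (157 to 196 in HFD, 154 to 176 in Control) had exact permutation p from 0.147 to 0.910 between groups (two-sided, n = 6 and 7), and adjusted p of 0.907 to 0.910.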

How the data were processed

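Per the labels, 100 ng of total RNA was labelled with Cy3. Per the file headers, the authors ran Agilent Feature Extraction 10.7.3.1 with an rn4 grid. The deposited spot values are intensity after background subtraction, linear and unscaled between arrays. The deposited value table holds log2 of the software's total gene signal, blank where undetected. RMA and Partek appear in the submitters' processing notes, with no role given.

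Control and outlier-flagged spots were dropped. Each probe's mean was scaled to the 75th percentile of its array (260 probes detected everywhere), held at or above 0.0197 (log2 -5.67), logged, and averaged per miRNA. miRNAs detected on at least 6 arrays were tested with limma 3.58.1 (R 4.3.3, Benjamini-Hochberg over all 176, threshold 0.05). Precision is limited by the number of arrays. Slides hold both groups (4 HFD and 4 Control, 2 HFD and 3 Control). Named were the 7 miRNAs, the 15 companions, the 5 nearest and 2 farthest of each tested miRNA, and the lowest p in each direction. Members, lists and rules were chosen with earlier results of these data known. The alternatives were other scalings, backgrounds, floors, filters, detection rules and arrays left out. Sequences are those of RefSeq (GRCr8), a build other than the arrays' grid.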

Additional observations from a re-analysis of the deposited data

Results flagged for a closer look

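Of 14 sets of array values (7 miRNAs in 2 groups) 1 held an array far from the rest. For miR-200c the scaled signal with no floor was 0.000117 on HFD 619, against -0.00153 to -0.00123 on the other 5 HFD arrays. The gap was 0.820 of the group's range, above Dixon's 95% limit for 6 samples. Chance marks about 1 in 20 such sets. miR-200c was at background on every array.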

How the results depend on the processing

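Leaving out 1 array at a time kept the direction of all 3 tested differences, with miR-203 between 0.114 and 0.235, miR-3545-3p between 0.130 and 0.261 and miR-205 between -0.295 and -0.0749. The count of miRNAs past the threshold stayed at 0 in all 16 alternatives and with each array left out. Directions reversed only within a slide, for miR-203 on slide 1 (-0.034) and miR-205 on slide 2 (0.083), and the cause was not tested. Without the 5 arrays of high miR-133b, an alternative chosen after seeing the data, as were the signals with no floor and the test between slides, the differences were 0.063, 0.22 and -0.18 in the same order. miR-3545-3p moved by over 1.5 times without HFD 624 (0.13), and miR-205 did without Control 622 (-0.075), Control 658 (-0.29), HFD 620 (-0.30) or HFD 624 (-0.10).

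miR-200a was detected on 2 arrays when every probe had to pass and on 1 of 8 without those 5 arrays, and miR-200b on 1 and 1. miR-429 was detected on 5 arrays when 1 spot sufficed and on 4 by the software flag. When every probe had to pass, miR-3545-3p was detected on 8 arrays (5 HFD, 3 Control) and miR-205 on 11 (4 HFD, 7 Control). With 1 array left out, miR-200a was detected on 4 to 5, miR-200b on 3 to 4, miR-429 and miR-200c on 0, and the others on 12. The Spearman correlation of miR-203 with miR-3545-3p ran from 0.69 to 0.90. That of miR-203 with miR-205 turned to -0.016 in the deposited table and reached 0.53 without the 2 farthest arrays. That of miR-3545-3p with miR-205 turned to 0.12 when scaled over all probes, 0.071 with the median, 0.082 with quantile normalization, 0.36 with normexp and 0.064 without the 2 farthest arrays, and neither pair passed under any.

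A floor raised 4 times was not run for miR-205, miR-3545-3p or the correlations, since their levels lie at it. Normexp used the spots' median signal. No correlation was made on the 5 arrays of slide 2. No paired analysis was possible because each animal number is used once and the groups share none.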

Other observations

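The deposited value table and the scanner files differ for miR-429 on Control 662, where the table holds 14.36 for a total gene signal of 20.1, which is 10.03 above the log2 of that signal. Of the 2569 values in the table, 26 differ by more than 2e-04, and 24 of those by over 3. All 26 equal the log2 of the signal after the text 0.1 in it is replaced by 1. All 26 values with that text were changed, and 0 kept it.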
